A study of Zea mays with 12 samples.

Results

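Kernels of the maize small-kernel mutant *smk7a* at 20 days after pollination (DAP) were compared with wild-type (WT) kernels at 12 DAP, gene by gene. The comparison uses 6 of the 12 sequenced samples, 3 biological replicates of each group, taken by genotype and stage. Of the 720 genes analysed, 355 were expressed above 1 FPKM (fragments mapped to a gene, per kilobase of its transcript and relative to all fragments mapped in that sample) in at least 3 of the 6 samples and were tested. Of these, 29 (8.17%) differed, 15 (4.23%) higher and 14 (3.94%) lower in *smk7a*.

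*smk7a* is a recessive mutation from a chemical (EMS) mutant library in the inbred line B73. Mutant kernels were picked by their phenotype on the selfed ears of heterozygous plants, through which the line is propagated. WT and *smk7a* kernels were taken from shared segregating ears (M8 generation), but whether the 2 stages shared ears is not stated. No sample received a treatment, and kernels called WT can be homozygous or heterozygous. Whole kernels were sequenced, holding endosperm, embryo and maternal pericarp. The mutation comes from 1 mutagenised line and other mutations of that line can be shared by the mutant kernels, so the 2 cannot be told apart here. The groups compared also differ in both genotype and stage.

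A maize kernel passes through cell division and early endosperm differentiation before it fills with starch and storage protein. The basal endosperm transfer layer, next to the maternal tissue, takes up sugars and amino acids from the mother plant, and the starchy endosperm stores them. The question addressed was which genes differ when the older mutant kernel is set against the younger WT kernel.

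Most genes differed little. The median log2 fold change over the 355 genes, given here and below as *smk7a* 20 DAP over WT 12 DAP on the log2(FPKM + 0.1) scale, was 0.05, with quartiles of -0.29 and 0.35. For 249 genes (70.1%) the log2 fold change was within 0.5 of 0, against a median standard error (SE) of 0.16. A gene was called when its adjusted p from limma was under 0.05 and its fold change above 2. With the adjusted p alone 86 genes (24.2%) passed, 48 (13.5%) higher and 38 (10.7%) lower, so that most of the differences past the test were smaller than 2-fold. Mutant and WT values were wholly separate for 151 genes (42.5%), 81 (22.8%) higher and 70 (19.7%) lower, the 29 called genes among them.

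**Figure D1:**
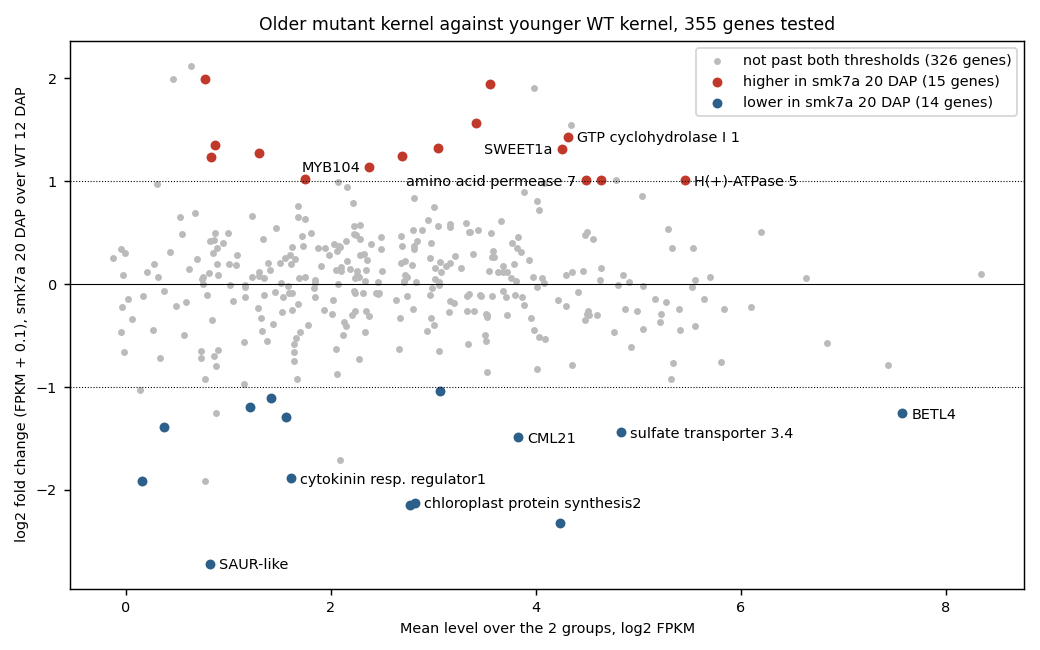
Each dot is 1 of the 355 tested genes, with the mean level of the 2 groups on the x axis (log2 FPKM) and the log2 fold change of smk7a 20 DAP over WT 12 DAP on the y axis. The 15 red and 14 blue genes pass both thresholds; dotted lines mark a 2-fold change, and the other 326 genes lie mostly between them.

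The genes analysed are the first 720 in identifier order and cover a small part of the genome. They are not a random sample of it, and include the genes named in the *smk7a* mapping interval and others near these in identifier order. The depth of the libraries cannot be read from FPKM. Summed over the 720 genes, FPKM ranged from 4261 to 4828 in WT 12 DAP and from 4175 to 4525 in *smk7a* 20 DAP, and these ranges overlap, whereas WT 20 DAP (2864 to 3257) and *smk7a* 12 DAP (5800 to 5853) stood apart. Values of these last 2 groups are given below as deposited, to place the genes, and the median of ratios factors that would divide them were 0.646 to 0.743 and 1.37 to 1.39, against 0.916 to 1.06 in the 2 groups compared. Across the 355 genes, Pearson's r of the log2 values was 0.924 to 0.953 between WT 12 DAP replicates and 0.947 to 0.968 between *smk7a* 20 DAP replicates. WT 12 DAP replicate 3 was the nearest of its group to the mutant (r of 0.885 to 0.929, against 0.858 to 0.889 for replicate 1 and 0.879 to 0.894 for replicate 2). Without it 30 genes were called, 23 of them among the 29. Endosperm was present in every sample by its markers, which are given next. Of the 7 genes listed for late embryo and aleurone by the words of their description, 6 were at 0 in all samples. Several are described only as a late embryogenesis abundant glycoprotein family, so the values of 0 do not show that embryo or aleurone was absent. In whole kernels, fewer cells of a type and less RNA per cell cannot be told apart.

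The endosperm genes analysed were lower in the older mutant kernel. Only 3 were listed, all 3 were tested and all 3 fell by the adjusted p (10.7% of all tested genes did), with a median log2 fold change of -0.92 against 0.05 over all genes, but only 1 also passed the fold threshold. This was *BETL4* (Zm00001d000161, basal endosperm transfer layer4), a gene of the transfer layer. Its FPKM were 271, 252 and 258 in WT 12 DAP and 54.7, 151 and 156 in *smk7a* 20 DAP. All mutant values lay below all WT values, and mutant replicate 1 was far below the other 2. *BETL4* fell by 1.26 ± 0.36 (SE) on the log2 scale (limma adjusted p = 0.0385). Without mutant replicate 1 it fell by 0.76, which is under the 2-fold threshold, and without any 1 of the 3 WT replicates the adjusted p rose to between 0.085 and 0.103. In WT 20 DAP, *BETL4* was at 124, 88.0 and 132 FPKM, and in *smk7a* 12 DAP at 67.5, 90.0 and 81.8 FPKM. Thus both the older WT kernel and the younger mutant kernel had lower values than WT 12 DAP.

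*du1* (Zm00001d000002, dull endosperm1) encodes a starch synthase of the endosperm. It was at 53.7, 58.5 and 44.5 FPKM in WT 12 DAP and at 26.8, 28.1 and 27.2 FPKM in *smk7a* 20 DAP. The log2 fold change was -0.92 ± 0.13 (limma adjusted p = 0.00269), just short of 2-fold. The mutant values at 20 DAP also lay below the WT 20 DAP values (36.3, 31.7 and 28.7 FPKM), and the *smk7a* 12 DAP values were lower again (17.7, 9.08 and 17.7 FPKM). *esp1* (Zm00001d000418, endosperm specific protein1) was at 200.1, 238 and 217 FPKM in WT 12 DAP against 102, 141 and 139 FPKM, with a log2 fold change of -0.79 ± 0.15 (limma adjusted p = 0.00775). These 3 genes were chosen with earlier results known, and the study names *BETL4* and *du1*, so that their direction here is not independent evidence.

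Some genes of uptake and transport moved the other way. Of 29 listed transport genes 15 were tested, of which 3 rose, 1 fell and 11 did not pass (4.23% and 3.94% of all tested genes rose and fell), and their median log2 fold change (0.12) was close to that of all genes. *SWEET1a* (Zm00001d000222) encodes a transporter of the SWEET family, which moves sugars across membranes down their gradient. Its FPKM were 12.8, 10.8 and 9.0 in WT 12 DAP and 22.4, 30.3 and 28.7 in *smk7a* 20 DAP. The lowest mutant value was well above the highest WT value. *SWEET1a* rose by 1.31 ± 0.17 on the log2 scale (limma adjusted p = 0.00258), and it was called whichever replicate was left out. In WT 20 DAP it was lower than in WT 12 DAP (6.14, 5.15 and 7.61 FPKM), and *smk7a* 12 DAP was as high as the older mutant (25.6, 40.7 and 29.7 FPKM).

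A probable amino acid permease 7 (Zm00001d001984), of a family that takes up amino acids with protons, was at 14.9, 17.5 and 12.2 FPKM in WT 12 DAP and at 34.0, 28.7 and 26.9 FPKM in *smk7a* 20 DAP. As deposited, its group means had the same order over the 4 groups as those of *SWEET1a*. WT 20 DAP was lowest (6.04, 5.53 and 4.82 FPKM) and *smk7a* 12 DAP highest (66.3, 83.3 and 67.9 FPKM). The gene rose by 1.01 ± 0.16 between the groups compared (limma adjusted p = 0.00504). H(+)-ATPase 5 (Zm00001d002006), a plasma membrane proton pump of the kind that drives such uptake, was at 29.6, 25.5 and 31.8 FPKM against 60.9, 59.3 and 55.2 FPKM and rose by 1.01 ± 0.12 (limma adjusted p = 0.00207). Both genes lie at the fold threshold. With samples scaled by their median ratio to the mean sample, their log2 fold changes became 0.98 and 0.99 and neither was called. Leaving out mutant replicate 1 also took both under 2-fold (0.91 and 0.98), as did leaving out WT replicate 3 for the permease (0.87) and WT replicate 2 for the pump (0.93).

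*Monosaccharide transporter4* (Zm00001d000183), of a family that carries hexoses with protons, was at 1.07, 1.1 and 2.15 FPKM in WT 12 DAP against 3.41, 4.09 and 2.92 FPKM, a rise of 1.27 ± 0.28 (limma adjusted p = 0.0154). Its WT replicate 3 was high. Unlike for *SWEET1a*, the *smk7a* 12 DAP values (2.25, 2.77 and 1.5 FPKM) overlapped those of WT 20 DAP (2.15, 1.70 and 2.32 FPKM). The adjusted p was 0.0561 without mutant replicate 2 and 0.0519 without WT replicate 1. The cell wall invertase gene *INCW4* (Zm00001d001941), whose product splits sucrose outside the cell, was too low to be tested, at 0.313, 0.0889 and 0.199 FPKM against 0.545, 0.433 and 0.256 FPKM.

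The transport gene that fell was a probable sulfate transporter 3.4 (Zm00001d000204). Its WT 12 DAP values were spread widely (61.6, 41.4 and 24.0 FPKM), but all lay above the mutant values of 15.3, 14.8 and 13.3 FPKM. The gene fell by 1.44 ± 0.30 on the log2 scale (limma adjusted p = 0.0124). The values of WT 20 DAP (16.0, 12.8 and 15.5 FPKM) and of *smk7a* 12 DAP (10.9, 19.2 and 13.1 FPKM) overlapped those of the older mutant, so that only WT 12 DAP stood apart as deposited.

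**Figure D2:**
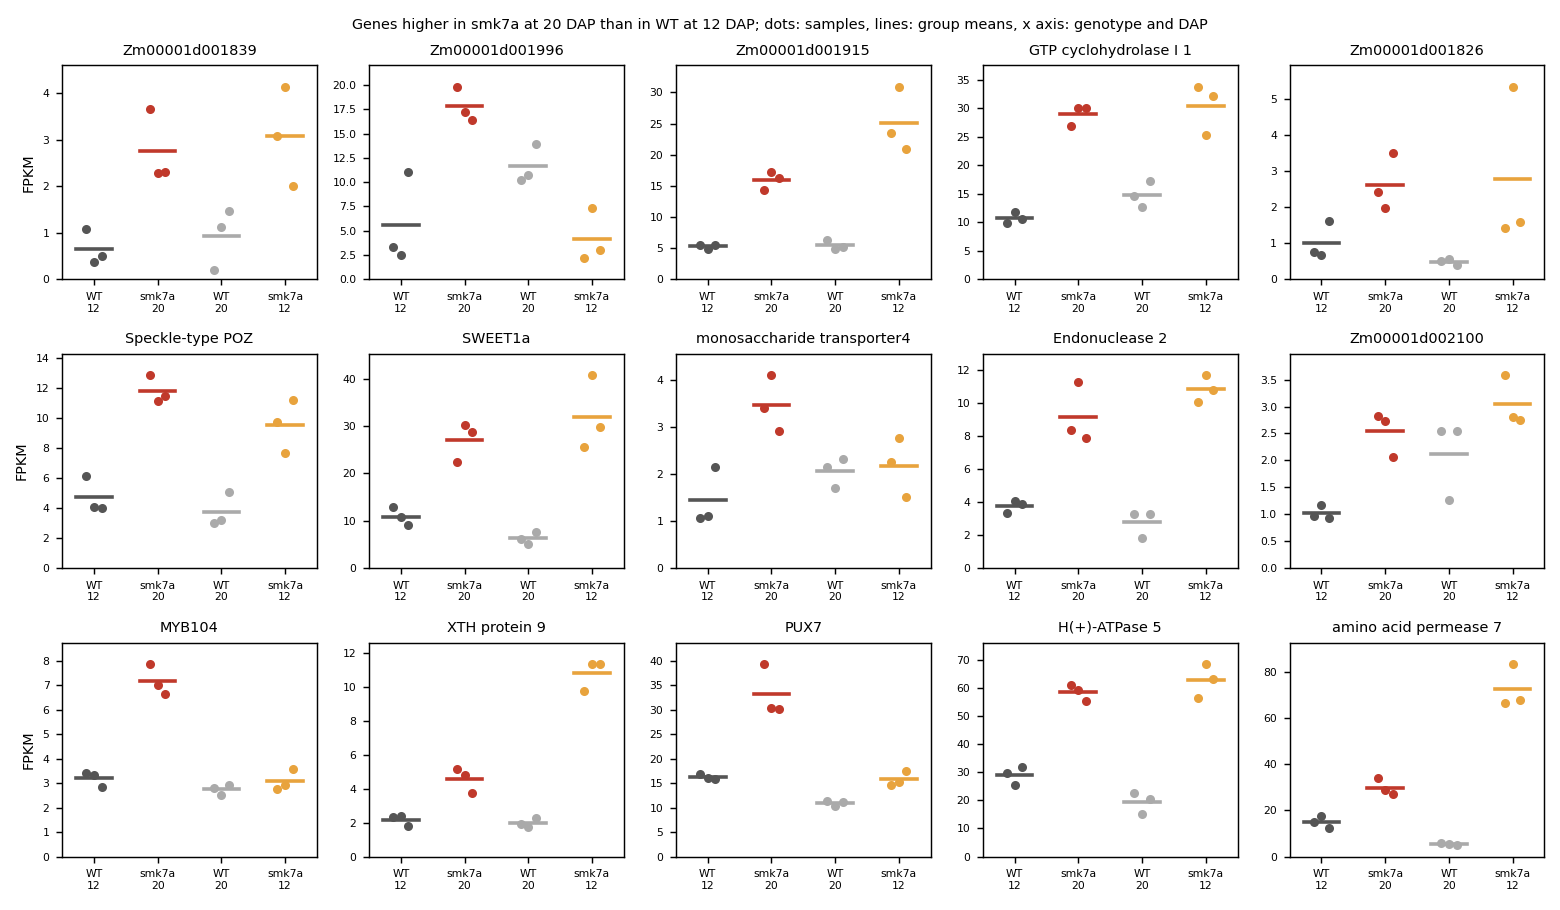
FPKM of the 15 genes that rose, with 1 dot per sample and a line at the mean of each group, for WT 12 DAP, smk7a 20 DAP, WT 20 DAP and smk7a 12 DAP from left to right. SWEET1a, amino acid permease 7, H(+)-ATPase 5 and XTH protein 9 are high in the mutant at both stages, whereas MYB104 and PUX7 (UBX domain-containing protein 7) are high in smk7a 20 DAP only.

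The other 11 genes that rose covered several functions. Zm00001d001959 encodes GTP cyclohydrolase I 1, the entry enzyme of folate synthesis. It was at 9.85, 11.8 and 10.5 FPKM in WT 12 DAP and at 26.9, 30.1 and 30.1 FPKM in *smk7a* 20 DAP, and rose by 1.43 ± 0.12 (limma adjusted p = 0.000286). The *smk7a* 12 DAP values (33.8, 25.3 and 32.1 FPKM) were in the same range as those of the older mutant, and WT 20 DAP (14.6, 12.7 and 17.2 FPKM) lay between. Zm00001d001915, which has no description, rose by 1.57 ± 0.12 (limma adjusted p = 0.000242), from 5.59, 4.93 and 5.44 FPKM to 14.4, 17.2 and 16.3 FPKM. WT 20 DAP matched WT 12 DAP for this gene (6.27, 4.92 and 5.20 FPKM), while *smk7a* 12 DAP was highest (23.6, 30.9 and 21.0 FPKM).

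Endonuclease 2 (Zm00001d002035), a nuclease, was at 3.34, 4.08 and 3.85 FPKM against 8.33, 11.2 and 7.85 FPKM and rose by 1.25 ± 0.16 (limma adjusted p = 0.00258). In *smk7a* 12 DAP it was at 10.0, 11.6 and 10.8 FPKM. A speckle-type POZ protein (Zm00001d001767), of a family that brings substrates to cullin ubiquitin ligases, rose by 1.32 ± 0.18 (limma adjusted p = 0.00258), with 6.16, 4.06 and 4.02 FPKM in WT 12 DAP and 12.8, 11.1 and 11.4 FPKM in *smk7a* 20 DAP. XTH protein 9 (Zm00001d002193, xyloglucan endotransglucosylase/hydrolase protein 9), which cuts and rejoins xyloglucan chains in the cell wall, was at 2.33, 2.39 and 1.83 FPKM against 5.13, 4.78 and 3.73 FPKM. Its rise of 1.02 ± 0.17 (limma adjusted p = 0.00573) was at the fold threshold and became 0.997 with median of ratios scaling, just under it. Leaving out mutant replicate 1 or 2 or WT replicate 3 took it to 0.93, 0.98 and 0.91. In *smk7a* 12 DAP the gene was higher again, at 9.76, 11.3 and 11.3 FPKM.

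The transcription factor list was matched by words such as zinc finger, and some of its 18 tested genes are not described as transcription factors. MYB104 (Zm00001d000361), a MYB transcription factor, was the only gene of this list to pass both thresholds. It was at 3.43, 3.33 and 2.85 FPKM in WT 12 DAP and at 7.86, 7.02 and 6.64 FPKM in *smk7a* 20 DAP, and rose by 1.14 ± 0.13 (limma adjusted p = 0.00155). As deposited, the other groups were at the WT 12 DAP level, with 2.79, 2.52 and 2.92 FPKM in WT 20 DAP and 2.75, 2.93 and 3.58 FPKM in *smk7a* 12 DAP. With median of ratios scaling the *smk7a* 12 DAP values lay below all 6 WT values. A UBX domain-containing protein (Zm00001d001895, protein 7), of a family of adaptors of the segregase CDC48, was likewise highest in *smk7a* 20 DAP. Its values were 16.9, 16.1 and 15.8 FPKM against 39.3, 30.4 and 30.0 FPKM. As deposited, *smk7a* 12 DAP overlapped WT 12 DAP (14.6, 15.1 and 17.6 FPKM) and WT 20 DAP lay below it (11.4, 10.3 and 11.2 FPKM). After median of ratios scaling the *smk7a* 12 DAP values of this gene, too, lay below all 6 WT values. The rise of 1.02 ± 0.14 (limma adjusted p = 0.00258) fell under 2-fold with median of ratios scaling (0.99), without mutant replicate 1 (0.89) and without WT replicate 3 (0.99).

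The remaining 4 genes that rose have no functional description. Zm00001d001839 had the largest rise, 1.99 ± 0.39 (limma adjusted p = 0.00875), from 1.09, 0.382 and 0.50 FPKM to 3.66, 2.30 and 2.30 FPKM. Zm00001d001996 was at 3.31, 2.51 and 11.0 FPKM in WT 12 DAP and at 19.8, 17.3 and 16.3 FPKM in *smk7a* 20 DAP. WT replicate 3 was far above the other 2, and the rise of 1.95 ± 0.47 (limma adjusted p = 0.0216) held with that replicate left out (2.58, adjusted p = 0.000686) but missed the adjusted p without any 1 of the other 5 samples (0.0517 to 0.0733). WT 20 DAP was also high for this gene (10.2, 10.7 and 14.0 FPKM) and *smk7a* 12 DAP low (2.24, 7.35 and 2.98 FPKM), so that both 20 DAP groups exceeded *smk7a* 12 DAP. Zm00001d002100 rose by 1.24 ± 0.21 (limma adjusted p = 0.00626), from between 0.923 and 1.16 FPKM to between 2.07 and 2.82 FPKM, and its WT 20 DAP values (2.55, 1.26 and 2.54 FPKM) overlapped those of the mutant. Zm00001d001826 rose by 1.35 ± 0.36 (limma adjusted p = 0.0288), from 0.755, 0.665 and 1.62 FPKM to 2.41, 1.98 and 3.50 FPKM. It missed the adjusted p in 4 of the 6 fits with 1 replicate left out (0.062 to 0.115, without mutant replicate 1 or 3 or WT replicate 1 or 2). Amino acid permease 7, H(+)-ATPase 5 and UBX domain protein 7, the smallest of the 15 rises, were described after their values were seen.

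In the *smk7a* mapping interval on chromosome 2, the study names 3 genes as the only ones above 1 FPKM in any sample. Zm00001d001826 follows them in identifier order and also exceeded 1 FPKM, but the study does not name it there. Without coordinates it is not known here whether that gene lies inside the interval. None of those 3 genes passed the test in this comparison. Zm00001d001819, for a de-N-acetylase family protein, was at 1.95, 1.48 and 1.94 FPKM in WT 12 DAP and at 1.31, 1.66 and 2.05 FPKM in *smk7a* 20 DAP (log2 fold change -0.11 ± 0.23, limma adjusted p = 0.756). The Dof zinc finger gene Zm00001d001824 was at 63.2, 63.2 and 58.4 FPKM against 57.6, 55.2 and 44.7 FPKM (-0.24 ± 0.13, limma adjusted p = 0.204). The WD40 repeat gene Zm00001d001825 was at 5.88, 5.09 and 4.45 FPKM against 3.83, 4.32 and 4.64 FPKM (-0.26 ± 0.14, limma adjusted p = 0.220). Only for Zm00001d001824 did the values not overlap between the groups. A change of the encoded protein cannot be seen in FPKM.

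The genes that fell included hormone response genes. The largest fall was that of a SAUR-like auxin-responsive gene (Zm00001d001964), of a family of small transcripts that auxin raises within minutes. It was at 3.14, 4.07 and 1.84 FPKM in WT 12 DAP and at 0.166, 1.23 and 0.159 FPKM in *smk7a* 20 DAP. Mutant replicate 2 was well above the other 2 but below all WT values. The fall was 2.72 ± 0.66 on the log2 scale (limma adjusted p = 0.0216), and it missed the adjusted p in 4 of the 6 fits with 1 replicate left out (0.0519 to 0.0795, without mutant replicate 1 or 3 or WT replicate 1 or 2). The gene was at 0, 0 and 0.543 FPKM in WT 20 DAP and at 3.08, 2.96 and 3.21 FPKM in *smk7a* 12 DAP, so that both 12 DAP groups were high and both 20 DAP groups low.

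Of the 6 tested auxin genes this was the only one past both thresholds, and the list had a median log2 fold change of -0.45. *Auxin response factor 16* (Zm00001d000358) fell by 0.75 ± 0.19 (limma adjusted p = 0.0229) and the auxin-responsive gene *IAA29* (Zm00001d000288) rose by 0.51 ± 0.15 (limma adjusted p = 0.0465), both by less than 2-fold. Auxin genes thus moved in both directions. ABC transporter B family member 19 (Zm00001d002119), named for its relation to the auxin carrier of Arabidopsis, did not pass (-0.66 ± 0.43, limma adjusted p = 0.285). These genes, like *cis-zeatin O-glucosyltransferase1* below, were named after their values were seen.

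*Cytokinin response regulator1* (Zm00001d001865), a signalling gene whose transcription cytokinin induces, was at 6.51, 5.02 and 3.14 FPKM in WT 12 DAP and at 0.983, 1.46 and 1.18 FPKM in *smk7a* 20 DAP. It fell by 1.89 ± 0.27 (limma adjusted p = 0.00315) and was called whichever replicate was left out. Stage again ordered the groups, with 0.474, 0.593 and 0.550 FPKM in WT 20 DAP and 6.21, 10.4 and 5.73 FPKM in *smk7a* 12 DAP, and the older mutant stayed above the WT of its own stage. *cis-zeatin O-glucosyltransferase1* (Zm00001d000237), whose product stores cytokinin as a glucoside, moved the other way, from 3.35, 3.30 and 1.85 FPKM to 6.26, 5.99 and 4.50 FPKM. Its log2 fold change of 0.99 ± 0.24 (limma adjusted p = 0.0229) was just under 2-fold. It was low in WT 20 DAP (1.46, 0.562 and 0.456 FPKM) and in *smk7a* 12 DAP (0.814, 2.0 and 1.5 FPKM).

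**Figure D3:**
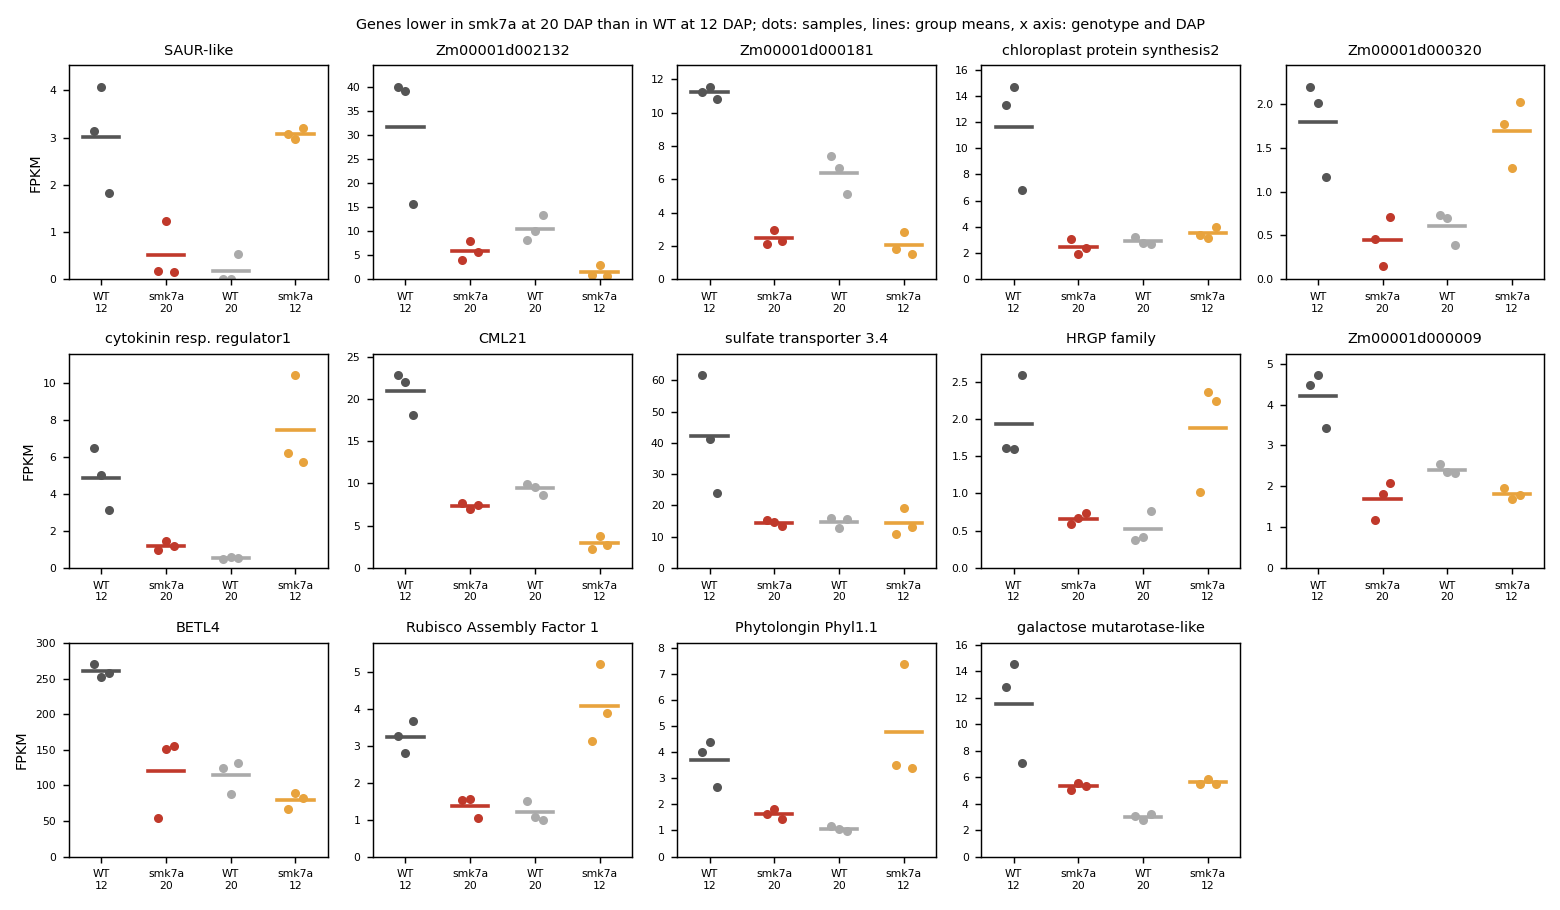
FPKM of the 14 genes that fell, with 1 dot per sample and a line at the mean of each group, in the same order of groups. For CML21, BETL4, Zm00001d002132 and Zm00001d000181 the smk7a 12 DAP values are low as well, whereas for the SAUR-like gene and cytokinin response regulator1 they are as high as in WT 12 DAP or higher.

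The firmest falls by the test were those of an undescribed gene and of a calcium sensor. Zm00001d000181 was at 11.3, 11.6 and 10.8 FPKM in WT 12 DAP and at 2.14, 2.97 and 2.32 FPKM in *smk7a* 20 DAP, a fall of 2.15 ± 0.14 (limma adjusted p = 0.000154). WT 20 DAP was intermediate (7.42, 6.67 and 5.14 FPKM) and *smk7a* 12 DAP as low as the older mutant (1.85, 2.83 and 1.55 FPKM). CML21 (Zm00001d000256), a probable calcium-binding protein of the calmodulin-like family, was at 22.8, 22.0 and 18.0 FPKM against 7.68, 7.0 and 7.41 FPKM and fell by 1.49 ± 0.13 (limma adjusted p = 0.000286). Its WT 20 DAP values (9.92, 9.63 and 8.68 FPKM) were above those of the older mutant, and *smk7a* 12 DAP was lowest (2.24, 3.81 and 2.67 FPKM). Zm00001d002132, also undescribed, fell by 2.33 ± 0.38 (limma adjusted p = 0.00531), from 40.1, 39.3 and 15.8 FPKM to 4.09, 7.98 and 5.79 FPKM. Here too *smk7a* 12 DAP had the lowest values, 0.833, 3.05 and 0.729 FPKM, and WT 20 DAP lay at 8.27, 10.0 and 13.5 FPKM.

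Genes of the plastid were few among the falls. *Chloroplast protein synthesis2* (Zm00001d000399), required for plastid translation in maize, was at 13.3, 14.7 and 6.80 FPKM in WT 12 DAP and at 3.06, 1.96 and 2.42 FPKM in *smk7a* 20 DAP. It fell by 2.13 ± 0.29 (limma adjusted p = 0.00269), and the values of WT 20 DAP (3.27, 2.74 and 2.72 FPKM) overlapped those of the older mutant. It was the only one of 25 tested chloroplast genes to fall past both thresholds, and the median of that list, -0.12, was a little below that of all genes. Rubisco Assembly Factor 1 (Zm00001d001812), a chaperone of the carbon-fixing enzyme that the list did not hold, fell by 1.20 ± 0.21 (limma adjusted p = 0.00641), from 3.26, 2.81 and 3.69 FPKM to 1.53, 1.57 and 1.04 FPKM. Zm00001d000009 fell by 1.29 ± 0.23 (limma adjusted p = 0.00702), from 4.48, 4.71 and 3.42 FPKM to 1.16, 1.82 and 2.08 FPKM. It carries the plastid gene name *atpB* as a synonym, and its value is uncertain because reads of near-identical plastid copies can be split between them.

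The markers of green tissue gave no call. Of 6 listed genes of the photosystems 1 was tested, a light harvesting subunit (Zm00001d001857) at 4.60, 9.39 and 4.14 FPKM in WT 12 DAP and at 0.313, 3.62 and 3.44 FPKM in *smk7a* 20 DAP. Its log2 fold change was -1.71 ± 0.80 (limma adjusted p = 0.157). The summed level of the 6 genes was 4.14 to 9.50 FPKM in WT 12 DAP and 0.313 to 3.62 FPKM in *smk7a* 20 DAP, and the photosystem genes other than Zm00001d001857 were at or near 0 in all samples. The part of green tissue in the plastid genes' falls was not tested. For late embryo and aleurone the summed level of 7 genes, all from 1 of them, was 12.4 to 19.9 FPKM against 11.2 to 15.4 FPKM, and the groups overlapped.

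The first 2 of the remaining falls were in genes at low levels. Zm00001d000320, undescribed, fell by 1.91 ± 0.52 (limma adjusted p = 0.0312), from 2.19, 2.01 and 1.17 FPKM to 0.465, 0.153 and 0.710 FPKM. Without mutant replicate 1 or 2 its adjusted p was 0.0511 and 0.0561, and without any WT replicate too few samples were above 1 FPKM for a test. A hydroxyproline-rich glycoprotein gene (Zm00001d000028), of a family of cell wall proteins, fell by 1.39 ± 0.30 (limma adjusted p = 0.0138), from 1.61, 1.60 and 2.58 FPKM to 0.583, 0.665 and 0.732 FPKM, and likewise had no test without a WT replicate. Both genes passed the filter on low values only through WT 12 DAP, the group where they were high, so the filter favours this direction. With no filter their limma adjusted p-values were 0.0151 (Zm00001d000028) and 0.0371 (Zm00001d000320). Phytolongin Phyl1.1 (Zm00001d000424), of a family of membrane traffic proteins, fell by 1.11 ± 0.21 (limma adjusted p = 0.00859), from 4.01, 4.40 and 2.67 FPKM to 1.62, 1.82 and 1.45 FPKM, and by 0.97 without WT replicate 2. A galactose mutarotase-like gene (Zm00001d001999), of enzymes that interconvert the ring forms of sugars, fell by 1.04 ± 0.25 (limma adjusted p = 0.0216), from 12.8, 14.5 and 7.07 FPKM to 5.02, 5.55 and 5.32 FPKM. WT replicate 3 was nearest to the mutant, and without it the fall was 1.35 (adjusted p = 0.000778), whereas leaving out any 1 of the other 5 samples raised the adjusted p to between 0.0517 and 0.073. These last 2 falls were also described after their values were seen.

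WT 12 DAP replicate 3 was the lowest of its group in 11 of the 14 falls and in 206 of the 355 tested genes (58.0%). Without it, 11 of the 14 falls and 12 of the 15 rises were still called. In all 6 fits with 1 replicate left out, 8 of the 14 falls and 8 of the 15 rises were called.

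The other gene lists held few calls. In the kinase and phosphatase list (27 tested), the ubiquitin and proteolysis list (22), the RNA processing list (8), the ribosome and translation list (7), the list of cell cycle, DNA and chromatin genes (5) and that of vesicle traffic (5), 0 genes passed both limma thresholds, and the list medians lay between -0.14 and 0.17. At an unadjusted p under 0.05, 8 kinase genes, 6 ubiquitin and proteolysis genes, 2 vesicle traffic genes and 1 gene in each of the other 3 lists were counted, against 131 of all 355 genes (36.9%). By the adjusted p alone, 2 kinase genes rose and 2 fell, 3 ubiquitin and proteolysis genes rose, 2 vesicle traffic genes fell and 1 gene rose in each of the other 3 lists. One of the 3 ubiquitin and proteolysis genes was a ubiquitin carboxyl-terminal hydrolase gene (Zm00001d001869), at 0.81 ± 0.16 on the log2 scale (limma adjusted p = 0.00944). Of the transcription factor list, matched by words such as zinc finger, 3 genes rose by the adjusted p and 1 fell, with a median of -0.04. The rises were MYB104, a RING finger gene (Zm00001d001848) and a zinc finger ubiquitin-hydrolase gene (Zm00001d002084). The last 2 are not described as transcription factors and were also counted among the ubiquitin and proteolysis genes. Of the 2 tested cell wall genes XTH protein 9 was the one that rose. All 7 tested ribosome and translation genes had fold changes above 0, as had 194 of the 355 genes (54.6%), but 1 of them passed the adjusted p, acidic ribosomal protein P2a-3 (Zm00001d001899) at 0.54 ± 0.15 (limma adjusted p = 0.0353). Of the 11 oxidoreductase genes 2 fell by the adjusted p. An alternative oxidase gene (Zm00001d001909), for a respiratory enzyme of mitochondria, fell by 0.85 ± 0.12 (limma adjusted p = 0.00258). Pyruvate dehydrogenase E1 subunit beta (Zm00001d000227) fell by 0.76 ± 0.16 (limma adjusted p = 0.0139). Another gene described as alternative oxidase (Zm00001d001908) went the other way and did not pass (0.50 ± 0.17, limma adjusted p = 0.0751). Both tested chaperone and stress genes were below 0, and 0 passed even at an unadjusted p under 0.05. The genes of this paragraph were named after their values were seen.

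The wound and browning genes varied widely between replicates. Of the 7 tested, 4 of which belong to a cluster of related genes, 6 had fold changes above 0 (54.6% of all tested genes had) and the median was 0.62, but 0 passed the adjusted p of limma (unadjusted, 2 higher and 1 lower were under 0.05). A wound-responsive gene, Zm00001d002158, was at 5.94, 2.81 and 10.6 FPKM in WT 12 DAP and at 8.87, 35.5 and 30.8 FPKM in *smk7a* 20 DAP (1.91 ± 0.60, limma adjusted p = 0.0535). Its neighbour Zm00001d002160 was at 5.23, 8.74 and 16.6 FPKM against 17.2, 21.3 and 52.4 FPKM (1.54 ± 0.50, limma adjusted p = 0.0569). The 4 genes of this cluster are next to each other in identifier order and may share reads. *Polyphenol oxidase1* (Zm00001d000001), an enzyme of tissue browning, was at 9.74, 4.12 and 5.06 FPKM against 9.03, 8.84 and 9.46 FPKM and did not pass (0.62 ± 0.28, limma adjusted p = 0.150), although it stood at 115, 69.5 and 78.8 FPKM in *smk7a* 12 DAP. These genes, too, were named after their values were seen.

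**Figure D4:**
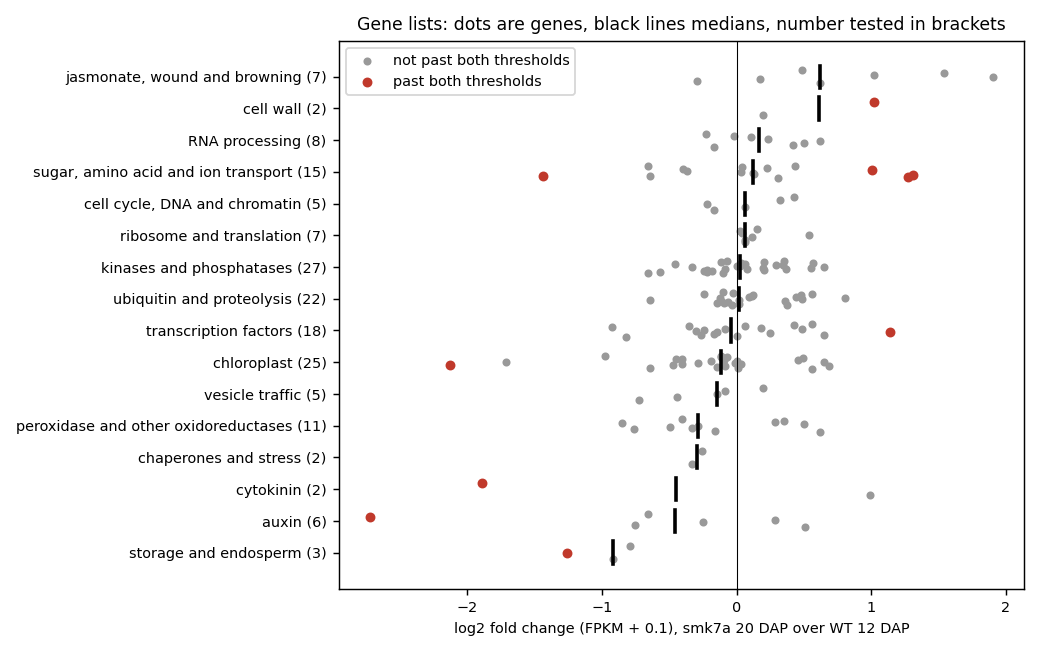
Log2 fold changes of the tested members of 16 gene lists, smk7a 20 DAP over WT 12 DAP, with a black line at each list's median and the number tested in brackets. Red genes pass both thresholds, and the storage and endosperm list has all 3 genes below 0.

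To place the older mutant against both WT stages, each gene's 3 *smk7a* 20 DAP values were compared with all 6 WT values. They lay above all 6 for 14 of the 15 rises, the exception being Zm00001d002100, against 70 of the 355 tested genes (19.7%). They lay below all 6 for 4 of the 14 falls, Zm00001d002132, Zm00001d000181, CML21 and Zm00001d000009, against 10 of the 355 (2.82%). The 29 genes were chosen on the WT 12 DAP part of these values, and these counts are a description. With median of ratios scaling the counts were 12 of 15 (38 of the 355 genes, 10.7%) and 6 of 14 (35 of the 355, 9.86%), since Zm00001d001996 and *monosaccharide transporter4* left the first group and *chloroplast protein synthesis2* and the sulfate transporter joined the second.

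The WT stages were also set beside each other. The falls were chosen for high WT 12 DAP values, so the choice itself favours WT 20 DAP values below them, and the counts are a description. For all 14 falls, all 3 WT 20 DAP values lay below all 3 WT 12 DAP values, as they did for 222 of the 355 tested genes (62.5%), and with median of ratios scaling this held for 13 of the 14 and for 82 of the 355 (23.1%). For 7 of the 14 the mean of *smk7a* 20 DAP lay between those of WT 12 DAP and WT 20 DAP, and for 4 of the 14 with that scaling. For the rises this count was 0 of 15, and for 6 of the 15, among them *SWEET1a*, amino acid permease 7 and H(+)-ATPase 5, WT 20 DAP lay wholly below WT 12 DAP as deposited. With that scaling this held for amino acid permease 7 alone, and 1 of the 15 had a mutant mean between those of WT.

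The converse pair of groups, *smk7a* 12 DAP against WT 20 DAP, shares no sample with this comparison. As deposited, its values were shifted, with a median log2 fold change of 0.98 over 361 tested genes and 191 genes called (52.9%), of which 175 (48.5%) were higher and 16 (4.43%) lower. With median of ratios scaling the median became 0.04 and 69 genes were called (19.1%), 41 (11.4%) higher and 28 (7.76%) lower, and only this scale is used for directions below. On this scale, 5 of the 15 rises were also higher in the younger mutant than in the older WT, and 1 was lower. Amino acid permease 7 had the largest of these differences (2.74 ± 0.15 on the log2 scale, limma adjusted p = 2.6e-05), followed by XTH protein 9 (1.46 ± 0.13), *SWEET1a* (1.36 ± 0.21), Zm00001d001915 (1.21 ± 0.18) and Endonuclease 2 (1.02 ± 0.20). The 1 that was lower was Zm00001d001996 (-2.57 ± 0.42, limma adjusted p = 0.00269). These 5 are 33.3% of the rises and 12.2% of the 41 genes higher in the converse pair.

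Of the 14 falls, 6 were also lower in the younger mutant than in the older WT and 3 were higher. Those lower were Zm00001d002132 (-3.88 ± 0.50), CML21 (-2.64 ± 0.21), Zm00001d000181 (-2.55 ± 0.26), *BETL4* (-1.48 ± 0.16), Zm00001d000009 (-1.32 ± 0.14) and the sulfate transporter (-1.04 ± 0.22). They are 42.9% of the falls and 21.4% of the 28 genes lower in the converse pair. As deposited, only Zm00001d002132, CML21 and Zm00001d000181 of these were called. Those higher were the SAUR-like gene (3.50 ± 0.84, limma adjusted p = 0.0142), *cytokinin response regulator1* (2.62 ± 0.27, limma adjusted p = 0.000511) and Phytolongin Phyl1.1 (1.05 ± 0.32, limma adjusted p = 0.0307), and all 3 were also higher as deposited. The falls thus held genes that were lower in the mutant in both comparisons, and genes that were lower in the older kernel in both. Of the former, *BETL4* and the sulfate transporter had *smk7a* 20 DAP values that overlapped those of WT 20 DAP as deposited. With median of ratios scaling the older mutant lay below all WT values for the transporter but not for *BETL4*.

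**Figure D5:**
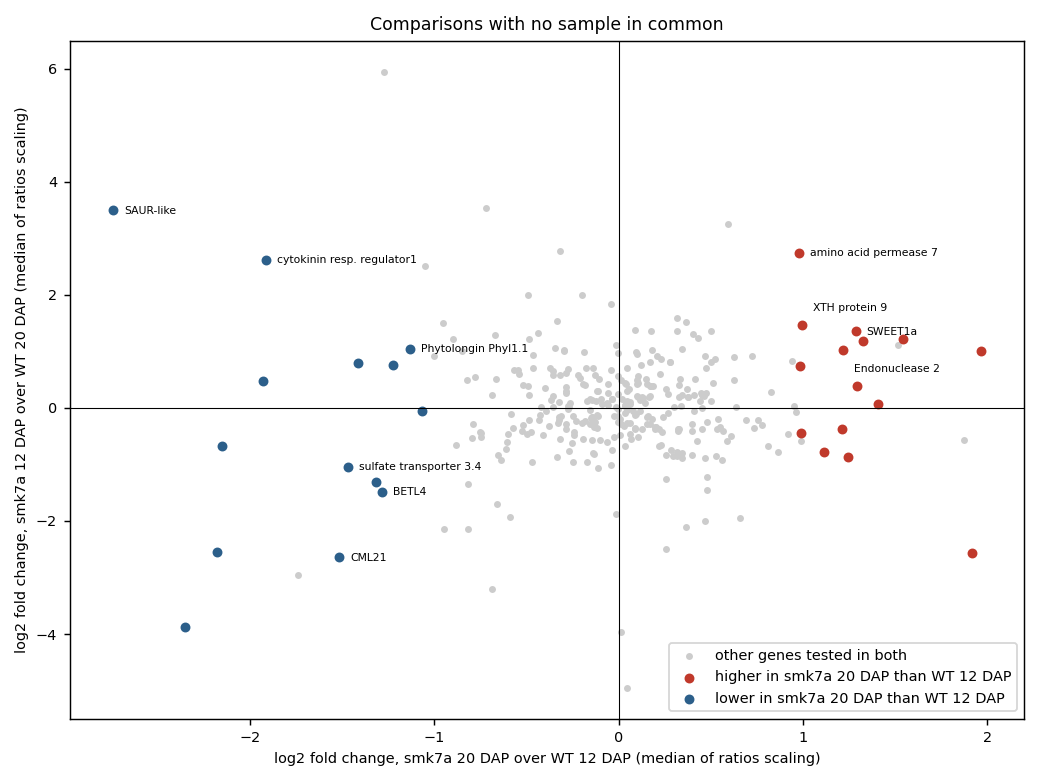
Log2 fold changes after median of ratios scaling, with smk7a 20 DAP over WT 12 DAP on the x axis and smk7a 12 DAP over WT 20 DAP on the y axis. Blue genes at lower left (CML21, BETL4) are lower in the mutant in both comparisons, and blue genes at upper left (SAUR-like gene, cytokinin response regulator1) are lower in the older kernel in both; 10 of the 15 red genes lie above 0 on the y axis.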

How the data were processed

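RNA of whole kernels was sequenced by the authors from stranded mRNA libraries as paired-end reads, trimmed (Trimmomatic), mapped with HISAT2 to B73 RefGen_V4 with the Ensembl Plants annotation keeping perfectly matching reads, and deposited as FPKM per gene and sample. The program that made the FPKM is not given in the sources used here. The authors used DESeq2 for their own tests. The copy of the table used here stops partway, at 720 genes, and 0 value columns were left unused. Of the 720 identifiers, 0 matched the gene table of the reference, whose assembly differs, so no coordinates or sequences are given.

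Values were taken as log2(FPKM + 0.1). Genes exceeding 1 FPKM in 3 or more of the 6 samples were tested with limma 3.58.1 (R 4.3.3; linear model, eBayes with a mean-variance trend), adjusting p-values over all genes tested (Benjamini-Hochberg). Every adjusted p-value given is from limma, and calls needed adjusted p under 0.05 and a fold change above 2. The two-sided exact permutation test of 3 against 3 samples cannot go below p = 0.1, which each of the 29 called genes reached. The limma test was run on simulated data first. FPKM carry no read totals, so the depth and the sampling error per gene are unknown, and errors are SEs over replicates. Replicates are labelled as biological.

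Named genes were the 12 largest rises and falls whose groups did not overlap, the genes of the mapping interval, selected kernel genes and up to 2 called genes of each of 16 lists matched to the deposited descriptions. RING and Rab were matched as whole words, because as letters within words they matched unrelated descriptions. The comparison, the genes and the lists were chosen with earlier results of these data known. The alternatives were other scalings, pseudocounts, filters and limma settings, the replicate block, and leaving out each replicate. Tables used pandas 2.3.3 and numpy 2.4.6 under Python 3.11.15, and figures matplotlib 3.10.9.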

Additional observations from a re-analysis of the deposited data

How the results depend on the processing

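Of the alternatives to the 29 calls, a pseudocount of 1 gave 15, no fold threshold 86 and a test against a fold change of 1.5 gave 6, and the others gave 26 to 35. Leaving out each replicate gave 22 to 30. With upper quartile scaling 11 were higher and 17 lower (39.3% higher, against 51.7%). The *smk7a* 12 DAP against WT 20 DAP comparison had 191 calls as deposited, 69 with median of ratios, 71 with upper quartile and 72 with total FPKM scaling and 297 with no fold threshold. Leaving out each replicate gave 159 to 190. The share called higher was 91.6% as deposited and 59.4% with median of ratios scaling. The fold change of Zm00001d001819 reversed to 0.0498 without *smk7a* 20 DAP replicate 1, with a range of -0.26 to 0.0498 over the left-out replicates, and it passed no threshold. The cause of these differences between settings was not tested. Over the single genes, 581 values kept their direction and side of the threshold, 88 no longer passed, 4 newly passed and 1 reversed.

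Same-numbered samples of the 2 groups did not deviate together, with r of -0.01, -0.39 and -0.05 for replicates 1 to 3. The mean r between other numbers was 0.07, and in this comparison no sample was nearest to its own number. These few values cannot show whether the numbers pair the samples, because each group has only 3. With the replicate number as a block, 33 genes were called (189 in the converse comparison), including all 29.

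FPKM hold no read counts, so low genes, at 1 to 3 FPKM, have unknown sampling error, and a pseudocount of 1 shrinks them most. Genes beyond the 720 were not analysed here, and changes under 2-fold are not counted as calls.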
